A study of Mus musculus with 4 samples.

Results

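Lhx6, Lhx8, Nkx2-1, Sox6, Satb1 and Maf are 6 nuclear regulators known from the medial ganglionic eminence lineage, and they are 6 of the 20136 genes in the count tables described here. They were chosen by name, with earlier results of these data known, as were the gene lists used below. They were followed in the BNST (bed nucleus of the stria terminalis), part of the extended amygdala, whose neurons are mostly GABAergic. The data are 4 Drop-seq libraries. In Drop-seq, beads with barcodes pick up the RNA of single cells, and a random tag (unique molecular identifier, UMI) lets every molecule be counted once. Each library came from BNST punches of 6 pooled wildtype C57BL/6J mice, all male. There was 1 group of animals, with no treatment and no mutant allele, and the mice's age is not given in the labels. All comparisons therefore set classes of cells from the same libraries side by side, with n as the number of libraries. The labels name the libraries Batch 1 to Batch 4, with 1 pool of mice in each. The spread between libraries thus holds differences between pools and between batches, which cannot be told apart.

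The medial ganglionic eminence is a transient domain of the embryonic ventral forebrain that yields many interneurons of the cortex, striatum and amygdala, and also neurons of the basal forebrain. Nkx2-1 sets the identity of its progenitors and acts upstream of the LIM homeodomain genes Lhx6 and Lhx8. Lhx6 in turn acts upstream of Sox6 and Satb1 in maturing interneurons, Lhx8 is required for cholinergic neurons, and Maf has roles in the production of somatostatin interneurons. The neighbouring lateral eminence yields striatal projection neurons, marked by genes such as Meis2 and Ppp1r1b, and the caudal eminence yields interneurons marked by Prox1 and Nr2f2.

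Of 10200 barcodes with 14018026 UMIs, 4181 cells were kept (837 to 1281 per library). Among them 2176 were classed as GABAergic from Gad1, Gad2 and Slc32a1, 84 as glutamatergic, 282 as neurons of neither class and 1576 as non-neuronal. The GABAergic cells held a median of 3482.5 UMIs, from 2626.5 in library 4 to 4571 in library 1. No barcode was shared between libraries among kept cells. Levels below are UMIs of a gene per 1000000 UMIs of the summed cells (CPM). They are compared between sets of cells and not between genes, because gene length and capture differ.

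All 6 genes lie on the minus strand in GENCODE vM21 on GRCm38 and are protein-coding. Lhx6 spans chr2:36081953-36105408, Lhx8 chr3:154306294-154330659 and Nkx2-1 chr12:56531958-56536908. Sox6 spans chr7:115470872-116038796, Satb1 chr17:51736187-51833290 and Maf chr8:115682942-115707794. Maf overlaps the measured gene Gm15655 on the opposite strand, and the counting strand is not given in the sources used here, so their reads may not be told apart. RefSeq promoter windows on GRCm38.p6, from 250 bases before to 50 after an annotated start, were listed for 5 of the 6 genes and not for Maf. The windows of Nkx2-1, Lhx8 and the most upstream of the 3 listed Lhx6 starts are shown, because these are the patterning factor and the LIM homeodomain pair whose combinations divide the neurons below. Each is written 5′ to 3′ along the minus strand. Capitals mark matches on either strand to TCAAG, the core of the NKX motif, and to TGCTGA, the core of the MAF motif.
Lhx6, chr2:36105359-36105658, minus strand: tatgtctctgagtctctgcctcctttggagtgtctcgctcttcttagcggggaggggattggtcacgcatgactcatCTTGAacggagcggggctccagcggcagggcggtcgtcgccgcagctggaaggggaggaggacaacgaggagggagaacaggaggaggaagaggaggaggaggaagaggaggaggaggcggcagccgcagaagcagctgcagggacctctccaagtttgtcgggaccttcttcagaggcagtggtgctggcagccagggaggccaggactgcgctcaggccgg
Lhx8, chr3:154330511-154330810, minus strand: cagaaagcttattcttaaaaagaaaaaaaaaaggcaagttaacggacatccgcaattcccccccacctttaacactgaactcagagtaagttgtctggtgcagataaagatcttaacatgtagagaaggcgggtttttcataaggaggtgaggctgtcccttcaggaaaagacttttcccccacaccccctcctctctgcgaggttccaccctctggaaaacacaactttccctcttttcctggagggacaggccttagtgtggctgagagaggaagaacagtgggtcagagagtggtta
Nkx2-1, chr12:56536859-56537158, minus strand: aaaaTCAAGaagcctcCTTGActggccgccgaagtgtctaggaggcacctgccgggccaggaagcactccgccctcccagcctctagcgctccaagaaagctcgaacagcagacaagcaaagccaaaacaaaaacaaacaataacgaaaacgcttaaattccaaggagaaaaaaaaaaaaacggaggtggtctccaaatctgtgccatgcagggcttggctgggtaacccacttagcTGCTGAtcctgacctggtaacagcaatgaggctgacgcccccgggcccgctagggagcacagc

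The Lhx6 window held 1 match to TCAAG, the Nkx2-1 window held 2 matches to TCAAG and 1 to TGCTGA, and the Lhx8 window held no match. None of these 3 windows held TAATTA, a LIM homeodomain motif, or ACAATG, a SOX motif. Among all 32851 windows of this length, 40.7% held TCAAG, 19.5% TGCTGA, 5.29% TAATTA and 12.6% ACAATG on either strand. The motifs do not overlap one another in the windows shown. A match describes letters only, and counts taken near the 3′ end of transcripts do not show which start was used.

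Lhx6 and Lhx8 were higher in GABAergic neurons than in non-neuronal cells and glutamatergic neurons, whereas Sox6, Satb1 and Maf were at similar or higher levels in the summed non-neuronal cells. In oligodendrocytes alone the means of Sox6, Satb1 and Maf were lower, at 9.29, 19.0 and 1.21 CPM. The GABAergic means were 18.4, 30.5 and 12.4 CPM, with overlapping ranges for Sox6 and Satb1. Lhx6 measured 36.8, 47.4, 57.0 and 58.4 CPM in the GABAergic cells of libraries 1 to 4, and 2.61, 0, 0 and 2.37 CPM in non-neuronal cells. All 4 GABAergic values lay far above all 4 non-neuronal ones. Lhx8 measured 26.9, 36.3, 24.6 and 31.5 CPM in GABAergic cells, and no UMI was counted in 1576 non-neuronal cells. Summed counts per library were tested with edgeR's quasi-likelihood test with the library as a block, and p-values were adjusted by the Benjamini-Hochberg method over all genes tested. A gene counts as changed below an adjusted p of 0.05. Against non-neuronal cells 5 of the 6 genes passed, where 71.4% of 10166 tested genes passed (37% higher in GABAergic cells and 34.5% lower), so the count itself sets the genes apart in no way. Lhx6 stood 35.4-fold higher in GABAergic cells over 3 UMIs in the non-neuronal group (95% counting interval 12.0 to 172, edgeR adjusted p = 2.5e-16). Lhx8 was at least 22.2-fold higher, set against 3 counts over the non-neuronal group (edgeR adjusted p = 4.7e-13). The 282 neurons of neither class were shallow (median 840 UMIs) and were not tested: their 6 Lhx6 UMIs gave 16.3, 67.4, 0 and 8.54 CPM, with library 2 above every GABAergic value, and they held 1 Lhx8 UMI. In vascular cells Lhx6 measured 39.6 CPM in library 1, from 2 UMIs in 1 cell, above the GABAergic value of that library, and 0 in the other libraries.

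Nkx2-1, the patterning factor, measured 11.1, 17.4, 19.7 and 24.9 CPM in GABAergic cells and 2.61, 2.13, 8.39 and 7.11 CPM in non-neuronal cells. The ranges did not overlap, and the log2 difference was 1.54 (SE 0.43, edgeR adjusted p = 0.00094). Among the non-neuronal classes its UMIs came mainly from astrocytes, at 23.5 ± 11.4 CPM (SD, n = 4), a level whose range overlapped that of the GABAergic cells. Sox6 fell in GABAergic against non-neuronal cells by 1.71 on the log2 scale (SE 0.23, edgeR adjusted p = 7.2e-10), at 18.4 ± 11.4 against 49.5 ± 16.0 CPM. Maf was lower by a log2 value of -0.84 (SE 0.33, edgeR adjusted p = 0.019), a call lost in 6 of 12 alternatives, among them DESeq2 (adjusted p = 0.14), without library 1 (0.36) and without library 4 (0.059). Satb1 stood at 30.5 ± 10.4 CPM in GABAergic and 25.1 ± 4.96 CPM in non-neuronal cells, with a log2 difference of -0.02 (SE 0.25, edgeR adjusted p = 0.95).

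Sox6 was highest in oligodendrocyte precursor cells (OPCs), the glial cells marked by Pdgfra and Cspg4 in which it is known to act. It measured 202, 506, 429 and 155 CPM in the OPCs of libraries 1 to 4, against 17.4, 7.89, 34.5 and 13.7 CPM in GABAergic cells. Every OPC value exceeded every GABAergic one, and the log2 difference was 3.78 (SE 0.34, edgeR adjusted p = 3.7e-27), beside a median of -0.26 over all 9067 genes tested. In that comparison 3 members passed, where 37.6% of genes did (14.1% higher in OPCs and 23.5% lower). The other 2 were Lhx6 and Lhx8, which had no UMI in 151 OPCs and were at least 2.98-fold and 1.87-fold lower there (edgeR adjusted p = 0.00018 and 0.0059). The Lhx8 call was lost when cells of at least 800 genes were used (adjusted p = 0.050). Astrocytes held 85.1 ± 23.2 CPM of Sox6 (SD, n = 4), and oligodendrocytes less. Of the 41 Maf UMIs in non-neuronal cells, 19 came from 6 of only 10 microglia-like cells. These cells were too few for a level per library.

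Against glutamatergic neurons, which 3 libraries held in sufficient number, 2 members passed, where 2.4% of 9491 genes did (1.5% higher in GABAergic cells and 0.906% lower). Lhx6 and Lhx8 had no UMI in the 84 glutamatergic cells, which allows a share of up to 3.57% of cells with a UMI. In the libraries tested Lhx6 was at least 6.84-fold higher in GABAergic cells (edgeR adjusted p = 6.5e-06) and Lhx8 at least 4.61-fold higher (0.00062). Nkx2-1 and Sox6 also had no UMI in glutamatergic cells, but Nkx2-1 missed the threshold (edgeR adjusted p = 0.095) and Sox6 was too low to test. Satb1 and Maf were counted in both classes and did not pass (edgeR adjusted p = 0.51 and 0.92). Without library 1, which gave 48 of the glutamatergic cells, neither Lhx6 (adjusted p = 0.15) nor Lhx8 (0.49) passed, and with DESeq2 Lhx8 did not (0.17).

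**Figure D1:**
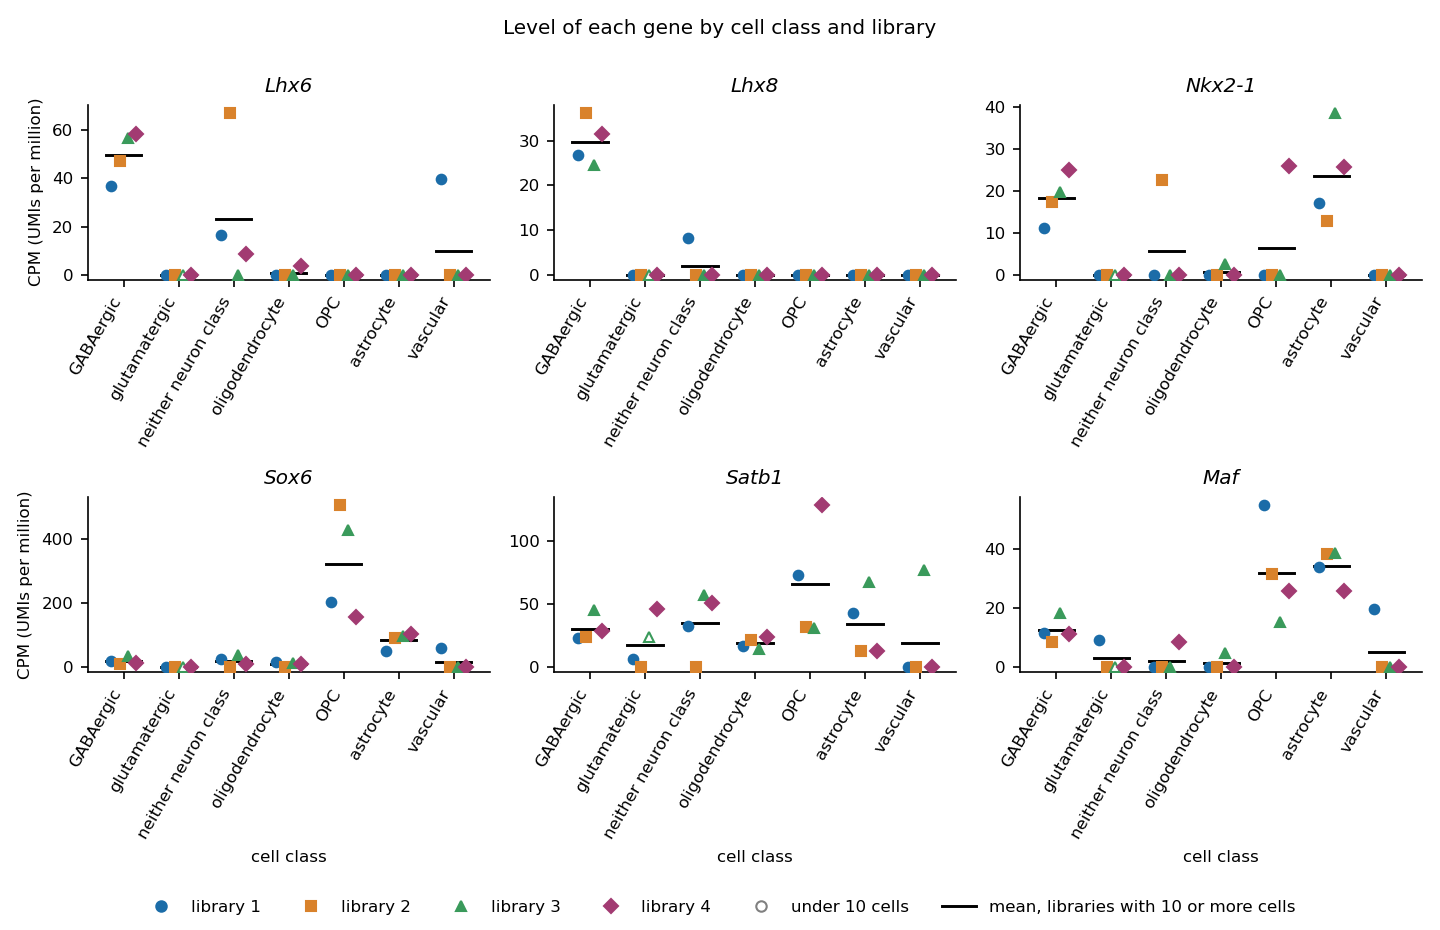
Level of the 6 genes in CPM (linear axis, one panel per gene) by cell class, with 1 point per library, hollow where a library held under 10 cells of the class, and the mean as a bar. Outside GABAergic cells Lhx6 is at or near 0 except in neurons of neither class (up to 67.4 CPM) and in 1 vascular value made by 1 cell, Lhx8 is at most 8.15 CPM, and Sox6 is highest in OPCs.

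At a matched depth, shares of cells followed the levels for Lhx6 but not for every gene. When each cell was thinned to 1000 UMIs, which left out 190 of the 2176 GABAergic cells, Lhx6 was expected in 4.34% ± 0.81 of GABAergic cells and 0.164% ± 0.33 of oligodendrocytes (SD, n = 4). Without thinning, 12.1% of GABAergic cells held an Lhx6 UMI (263 cells, exact 95% interval 10.7 to 13.5%). For Satb1 the thinned shares were 2.45% ± 0.40 in GABAergic cells and 1.95% ± 0.40 in oligodendrocytes. For Maf they were 1.20% ± 0.32 in GABAergic and 0.838% ± 0.56 in non-neuronal cells (n = 4), against the order of its levels. For Nkx2-1 they were 2.04% ± 0.56 in GABAergic cells and 2.27% ± 0.93 in astrocytes (n = 3). No order is read from these shares, and only levels are compared for these genes below.

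Of the 2176 GABAergic cells, 584 (26.8%) held a UMI of at least 1 of the 6 genes. One gene alone was seen in 390 cells, 2 genes in 149, 3 in 34, 4 in 9 and 5 in 2, and no cell held all 6. The median depth was 3115 UMIs in cells with none and 4422.5 UMIs in cells with at least 1, so a cell without a UMI may still express a gene.

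GABAergic cells were then divided by marker gates: at least 2 UMIs each of Sst and Npy; at least 1 each of Lhx8 and Rorb; at least 2 of Cck, Tac2, Prkcd or Ppp1r1b; or at least 1 of Six3 or Zic1. Sst and Npy encode neuropeptides of interneurons, and Rorb encodes a nuclear receptor. Cck and Tac2 encode neuropeptides, Prkcd a protein kinase of extended amygdala neurons, and Ppp1r1b the striatal phosphoprotein DARPP-32. Six3 and Zic1 are forebrain transcription factors. The gates held 76, 36, 133, 181, 51, 171, 454 and 241 cells in that order. Gates may share cells: 240 cells passed more than 1 gate, and 1099 passed none. No cell passed both the Sst and Npy gate and the Lhx8 and Rorb gate, whereas 13 of 36 cells of the latter passed the Zic1 gate and 79 of 171 Ppp1r1b cells passed the Six3 gate. Each gate was compared with the GABAergic cells that did not pass it, so the 8 comparisons share cells. In summed cells, fewer positive cells and fewer UMIs per positive cell cannot be told apart. Over the 8 gates, 21 values of the members passed the threshold, and these are not independent results. The share of all tested genes that passed ran from 2.32% in the Tac2 gate to 18% in the Ppp1r1b gate. It is given with each gate below.

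The 6 genes followed different orders over the gates. Lhx6 was highest in the Sst and Npy gate (245 ± 87.7 CPM, SD, n = 3), then in the Lhx8 and Rorb gate (151 ± 44.3 CPM, n = 3) and the Cck gate (103 ± 25.5 CPM, n = 4). The library ranges of these neighbours overlapped, and that of the Cck gate lay above the range of the cells of no gate, which came next (51.3 ± 9.41 CPM, n = 4). The Zic1 gate (48.2 ± 20.5 CPM, n = 4) reached 74.8 CPM in library 3, above the lowest Cck value of 68.7 CPM. The Tac2, Prkcd, Six3 and Ppp1r1b gates followed, at 16.3 ± 13.7, 10.5 ± 18.3, 3.35 ± 2.92 and 1.43 ± 2.86 CPM, each range overlapping the next. Lhx8 was highest in the gate it defines (278 ± 28.4 CPM, n = 3), next in the Zic1 gate (80.0 ± 23.7 CPM, n = 4) and at most 26.8 CPM on average elsewhere, with no overlap across either step. Sox6 had a single step, from 149 ± 23.9 CPM in the Sst and Npy gate to 42.5 ± 17.4 CPM in the Cck gate. Satb1 stood at 100 ± 57.0 and 96.1 ± 28.5 CPM in those gates, whose ranges overlapped, and measured 30.7 ± 9.93 CPM in cells of no gate, with no overlap. Its range in the Zic1 gate reached 57.6 CPM, above the lowest Cck value of 53.4 CPM. For Nkx2-1 and Maf every range overlapped that of its neighbour.

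**Figure D2:**
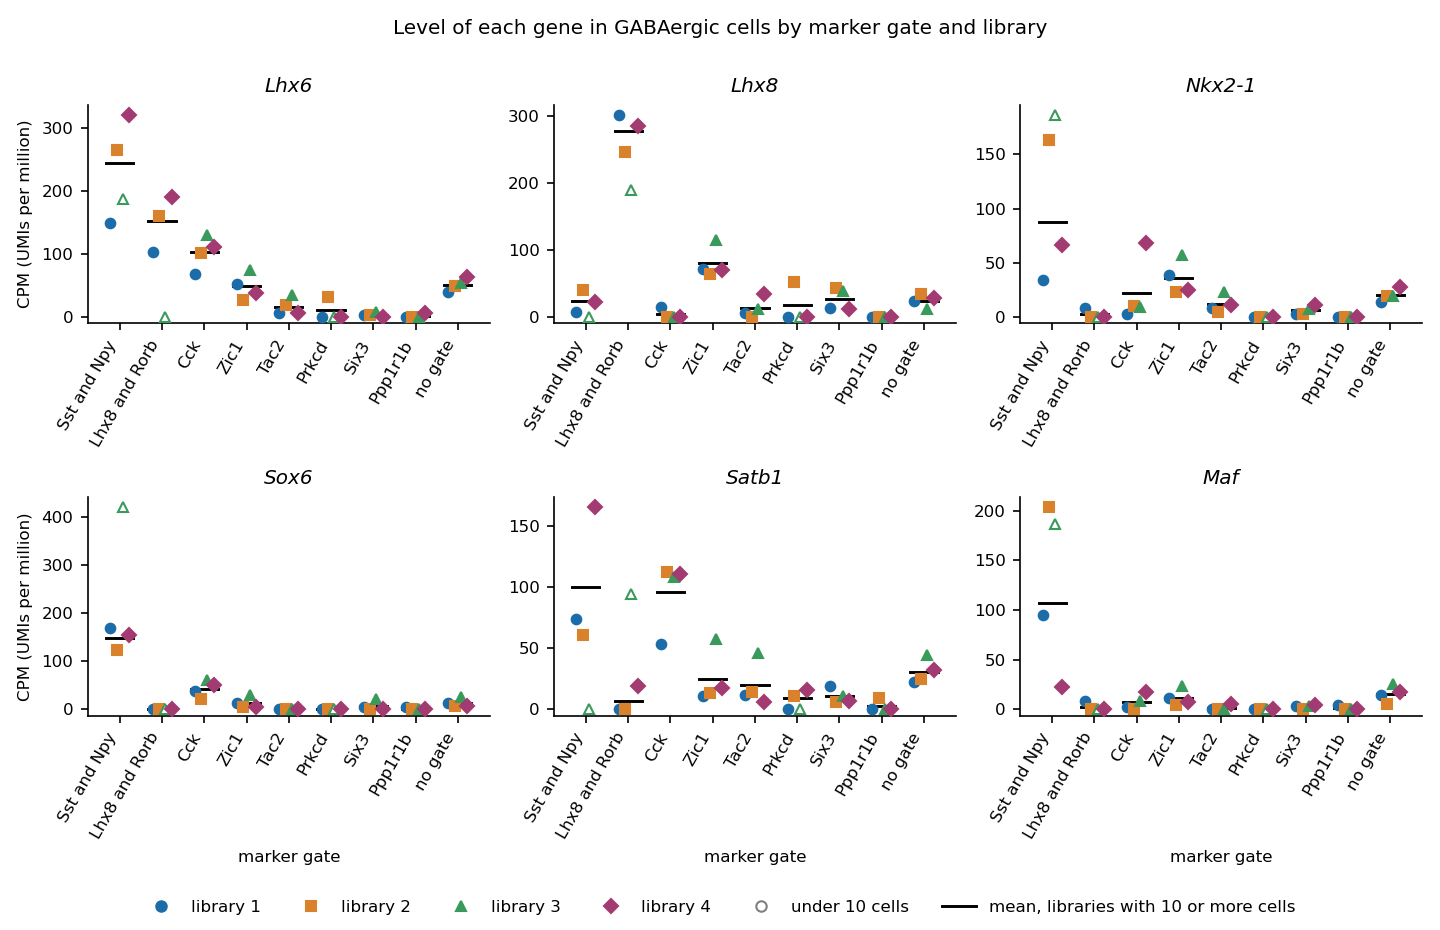
Level of the 6 genes in CPM (linear axis, one panel per gene) in GABAergic cells of each marker gate and of no gate, with 1 point per library, hollow where a library held under 10 cells, and the mean as a bar. Lhx6 declines from the Sst and Npy gate to the Ppp1r1b gate, Lhx8 peaks in the gate it defines and then in the Zic1 gate, and Sox6 and Maf are highest in the Sst and Npy gate.

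In Sst and Npy cells, 5 of the 6 factors rose together and Lhx8 did not. This compares with 1.58% of 9291 genes higher in that gate, 1.64% lower and 3.22% changed either way. Lhx6 measured 149, 265 and 320 CPM in libraries 1, 2 and 4, against 32.1, 41.6 and 45.7 CPM in the other GABAergic cells. Every gate value was above every other value, and the log2 difference was 2.56 (SE 0.30, edgeR adjusted p = 2.9e-15). Sox6, which acts downstream of Lhx6 in interneurons, measured 169, 122 and 155 CPM against 10.97, 4.86 and 6.91 CPM. The groups were again separate, with the largest log2 difference of the 6 genes in this gate, 4.22 (SE 0.43, edgeR adjusted p = 1.2e-19).

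Maf measured 94.6, 204 and 22.1 CPM against 8.09, 3.24 and 10.6 CPM, separate but with a wide spread, and rose by 3.60 on the log2 scale (SE 0.52, edgeR adjusted p = 7.3e-10). Satb1, a chromatin organiser required for somatostatin interneurons, measured 74.3, 61.1 and 166 CPM against 21.1, 23.2 and 22.3 CPM. It rose by 2.19 (SE 0.42, edgeR adjusted p = 1.8e-05), but not without library 4 (log2 difference 1.67, adjusted p = 0.20). Nkx2-1 measured 33.8, 163 and 66.3 CPM against 10.1, 13.5 and 22.9 CPM and rose by 2.23 (SE 0.52, edgeR adjusted p = 0.0012), but not without library 2 (1.67, adjusted p = 0.21). Library 3 held only 9 cells of this gate and did not enter the test. Its values are the hollow points in the plot of levels by gate, and 4 of its 6 members were above the other cells' level there.

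Lhx8 measured 6.76, 40.8 and 22.1 CPM in the Sst and Npy gate, higher than the other cells in library 2 and lower in libraries 1 and 4 (log2 difference -0.79, SE 0.69, edgeR adjusted p = 0.79). Of 10 tested interneuron genes of the medial eminence beyond Sst and Npy, 6 rose and 1 fell, with a median log2 difference of 1.48 beside -0.07 over all genes. Nos1, the neuronal nitric oxide synthase, rose by 4.18 (SE 0.23, edgeR adjusted p = 3.2e-68) and Chodl, which marks long-range projecting nitrergic neurons, by 2.75 (SE 0.23, 7.3e-29). Of 11 tested genes of the lateral eminence and striatum 7 fell and none rose, with Meis2 at 15.6 ± 16.7 against 448 ± 76.7 CPM. Of 8 tested genes of the caudal eminence 1 rose, 1 fell and 6 did not pass, with a median log2 difference of -0.27. The gene that rose was Prox1, by 2.49 (SE 0.41, edgeR adjusted p = 1.7e-07), and the gene that fell was Cck. Markers of other cell types were set beside the gate. The summed OPC markers measured 0 to 11.05 CPM with 4 of 5 at 0, the summed microglial markers 11.05 to 20.4 CPM with 7 of 8 at 0, and the summed oligodendrocyte markers 20.4 to 44.2 CPM with 3 of 8 at 0. The summed astrocyte markers measured 0 to 88.4 CPM (mean 29.5) with 4 of 7 at 0, against 4.71 to 16.9 CPM (mean 10.9) in all GABAergic cells. The summed vascular markers measured 22.1 to 87.8 CPM (mean 50.2) with 6 of 8 at 0, against 24.6 to 40.1 CPM (mean 33.1). The part of such RNA in the values of Sox6, Satb1 and Maf was not tested.

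The summed cells of the Lhx8 and Rorb gate held more Lhx6 than the other GABAergic cells but little of the other factors. An Lhx6 UMI was seen in 12 of the 36 gate cells, in 5, 3 and 4 cells of libraries 1, 2 and 4. Lhx6 measured 103, 160 and 190 CPM in libraries 1, 2 and 4, against 34.4, 42.3 and 54.7 CPM in the other GABAergic cells. The groups did not overlap, and the log2 difference was 1.68 (SE 0.35, edgeR adjusted p = 0.0001). It was the 1 member that passed, where 1.88% of 9192 genes were higher, 4.1% lower and 5.98% changed either way. Sox6 had no UMI in 36 cells, a limit of 3 counts that leaves the level at least 1.26-fold lower than in the other cells, and it was too low to test.

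Nkx2-1, Satb1 and Maf had 1 UMI each among the 34 cells of the 3 libraries tested. The other GABAergic cells held 4.35 times the level of Nkx2-1 (95% counting interval 0.77 to 173), 6.69 times that of Satb1 (1.19 to 266) and 2.84 times that of Maf (0.50 to 114). Nkx2-1 and Satb1 did not pass (edgeR adjusted p = 0.44 and 0.17), and Maf was too low to test. Lhx8 itself was used to select the cells and has no test, and the gate cells were deep (median 7064 UMIs), as a gate on 2 sparse genes selects. On the list of the basal forebrain, Isl1, a LIM homeodomain gene of cholinergic and striatal lineages, rose by 1.38 (SE 0.27, edgeR adjusted p = 1.5e-05), the 1 gene to rise of 5 tested. Of 11 tested genes of the lateral eminence 7 fell, of 7 tested genes of the caudal eminence 4 fell, and none of these rose. Of 11 tested interneuron genes of the medial eminence 4 fell and none rose, with Sst at 0 UMIs in the gate. All 5 OPC markers and all 7 astrocyte markers were at 0 UMIs in these cells, and the summed vascular markers measured 0 to 12.3 CPM with 6 of 8 at 0. The summed microglial markers measured 37.0 to 47.6 CPM with 7 of 8 at 0, against 14.2 to 21.8 CPM in all GABAergic cells. The summed oligodendrocyte markers measured 23.8 to 73.9 CPM with 4 of 8 at 0, against 31.0 to 68.2 CPM. The part of such RNA in the values of this gate was not tested.

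When Rorb was not required, Nkx2-1 turned from -2.13 to 1.01 on the log2 scale, passing in neither case (edgeR adjusted p = 0.44 and 0.11). The wider set of Lhx8-positive cells is described below with its Lhx6 content.

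The Cck gate carried Lhx6, Satb1 and Sox6 above the other GABAergic cells and Lhx8 below them. These 4 members passed, where 4.54% of 8695 genes did (2.56% higher and 1.98% lower). Lhx6 measured 68.7, 102, 130 and 111 CPM in libraries 1 to 4, against 32.9, 44.4, 42.9 and 55.0 CPM. The groups were separate and the log2 difference was 1.25 (SE 0.22, edgeR adjusted p = 1.7e-05). Satb1 measured 53.4, 112, 108 and 111 CPM against 19.6, 19.4, 33.6 and 23.7 CPM. It too was separate in all libraries and rose by 1.89 (SE 0.27, edgeR adjusted p = 9e-08).

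Sox6 measured 38.1, 20.4, 60.5 and 51.1 CPM in Cck cells against 14.9, 7.21, 29.4 and 11.3 CPM. It was higher in each of the 4 libraries although the groups overlapped, and rose by 1.42 (SE 0.36, edgeR adjusted p = 0.006), a call lost without library 1 (adjusted p = 0.067) or library 4 (0.066), without the library block (0.079) and at a mitochondrial limit of 5% (0.58). Lhx8 gave 6 UMIs, all in library 1 (15.3 CPM), against 28.3, 38.3, 29.4 and 33.5 CPM in the other cells. It fell by 2.09 on the log2 scale (SE 0.53, edgeR adjusted p = 0.0067), with the call lost without library 3 (0.076), without library 4 (0.062), with DESeq2 (0.12), without the library block (0.060) and at a mitochondrial limit of 5% (0.58). Nkx2-1 ranged from 2.54 to 68.1 CPM and did not pass (edgeR adjusted p = 0.95). The striatal list moved down in the same cells, with 9 of 10 tested genes lower, and of 7 tested caudal genes Nr2f2 and Nr2f1 rose and Cnr1 fell. The Cck cells were deeper than the rest, with a median of 6038 UMIs.

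Zic1 cells differed from the other GABAergic cells in Lhx8 and Nkx2-1 and not in Lhx6. Lhx8 measured 71.4, 63.4, 115 and 70.2 CPM in libraries 1 to 4, against 21.9, 32.7, 12.0 and 24.9 CPM. Each gate value exceeded each value of the other cells, and Lhx8 rose by 1.74 (SE 0.26, edgeR adjusted p = 1.1e-05). With cells that passed several gates left out, which removes those shared with the Lhx8 and Rorb gate, the difference was 1.79 (adjusted p = 0.00089). Nkx2-1 measured 38.5, 22.7, 57.6 and 24.6 CPM against 8.01, 16.7, 14.4 and 24.9 CPM. It was higher in 3 of 4 libraries, with overlapping ranges, and rose by 1.21 (SE 0.36, edgeR adjusted p = 0.043), a call lost without library 1 (0.77, adjusted p = 0.46) or library 3 (0.98, adjusted p = 0.26) and in 6 other settings. These were 2 calls among the members, where 4.63% of 8792 genes passed (2.07% higher and 2.56% lower).

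Lhx6 measured 52.2, 27.2, 74.8 and 38.6 CPM in Zic1 cells against 35.1, 50.01, 54.5 and 61.7 CPM, higher in libraries 1 and 3 and lower in the others (log2 difference -0.04, SE 0.25, edgeR adjusted p = 0.97). Sox6 and Satb1 did not pass (edgeR adjusted p = 0.55 and 0.55), and Maf was too low to test. On the list of the basal forebrain, Isl1, Zic4 and Tacr3 rose among 5 tested genes. Zic4 and Zic1 overlap on opposite strands, so Zic4 may share reads with the gate's own gene. On the list of the lateral eminence 8 of 10 tested genes fell.

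In the Tac2 gate Lhx6 fell, and in the Prkcd gate no member passed. In Tac2 cells Lhx6 measured 6.00, 18.9, 34.5 and 5.60 CPM against 41.8, 50.9, 58.4 and 63.6 CPM. The ranges did not overlap, and Lhx6 fell by 2.07 on the log2 scale (SE 0.37, edgeR adjusted p = 0.00049). The call was lost without library 1 (-1.72, adjusted p = 0.057). It was the 1 member that passed, where 2.32% of 9129 genes did (1.17% higher and 1.15% lower). Sox6 had no UMI in 181 Tac2 cells and was at least 6.33-fold lower by the count of 3, but it was not tested. Maf had 1 UMI, the other cells holding 12.9 times its level (counting interval 2.27 to 516).

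Lhx8 in Tac2 cells had a log2 difference of -1.59 (SE 0.46, edgeR adjusted p = 0.065), which passed in 5 other settings, among them without library 3 (0.026) and without library 4 (0.008). Its value in library 4 was above that of the other cells (33.6 against 31.2 CPM). Nkx2-1 and Satb1 did not pass (edgeR adjusted p = 0.56 and 0.27), and in library 3 both were above the other cells, Nkx2-1 at 23.03 against 19.5 CPM and Satb1 at 46.1 against 45.7 CPM. In Prkcd cells no member passed (edgeR), where 7.17% of 9314 genes did (3.4% higher and 3.77% lower) and 2 of the 4 members tested had an unadjusted p under 0.05. Lhx6 had 3 UMIs in the tested libraries, all in library 2, with the other cells at 3.68 times its level (counting interval 1.25 to 17.9, edgeR adjusted p = 0.096). Lhx8 had 5 UMIs, also all in library 2, where it measured 52.7 against 35.4 CPM. Nkx2-1, Sox6 and Maf had no UMI in 51 Prkcd cells.

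Six3 and Ppp1r1b cells, which carry genes of the lateral eminence, had the lowest mean levels of Lhx6, with ranges that overlapped that of the Prkcd gate. In Six3 cells Lhx6 measured 3.60, 2.73, 7.08 and 0 CPM against 46.8, 58.0, 69.4 and 75.2 CPM in the other GABAergic cells. The 454 gate cells gave 6 Lhx6 UMIs in all, and the log2 difference was -4.21 (SE 0.36, edgeR adjusted p = 1.2e-28). Maf fell by 2.19 (SE 0.52, edgeR adjusted p = 0.00098), Sox6 by 1.99 (SE 0.42, 0.0001), Nkx2-1 by 1.94 (SE 0.42, 0.00018) and Satb1 by 1.41 (SE 0.29, 7.9e-05). Each was lower in all 4 libraries, with the groups separate for all but Sox6. Thus 5 members passed, where 3.14% of 9308 genes were lower, 2.75% higher and 5.89% changed either way.

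Lhx8 did not follow them in Six3 cells. It measured 13.2, 43.6, 38.9 and 11.3 CPM against 31.0, 34.6, 21.1 and 37.3 CPM, higher in libraries 2 and 3 and lower in 1 and 4 (log2 difference -0.48, SE 0.25, edgeR adjusted p = 0.33). The calls of Nkx2-1, Sox6, Satb1 and Maf in this gate were lost with DESeq2 (adjusted p = 0.11, 0.079, 0.065 and 0.21) and without the library block (0.082, 0.36, 0.11 and 0.091). In the same cells 6 of 10 tested striatal genes rose, Ppp1r1b by 1.65 (SE 0.12, edgeR adjusted p = 5.1e-39). The Ppp1r1b value turned in sign when cells of several gates were left out, among them the 79 shared with the Ppp1r1b gate.

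In 171 Ppp1r1b cells the 6 factors gave 4 UMIs in all: 1 each of Lhx6, Sox6, Satb1 and Maf, and none of Lhx8 or Nkx2-1. The other cells held 33.6 times the Lhx6 level (counting interval 5.99 to 1328; edgeR adjusted p = 4.1e-07) and 20.1 times that of Satb1 (3.58 to 799; 0.00015). Lhx8 was at least 7.04-fold lower in the gate (edgeR adjusted p = 2.1e-05), and Nkx2-1 at least 4.01-fold lower without a test. These 3 calls stand beside 8.96% of 8650 genes lower, 9.04% higher and 18% changed either way. All 10 tested striatal genes rose in this gate, and 6 of 7 tested caudal genes fell. Ppp1r1b overlaps 1700003D09Rik, and Six3 overlaps Six3os1, on opposite strands, so the gates themselves may take in reads of these partners.

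**Figure D3:**
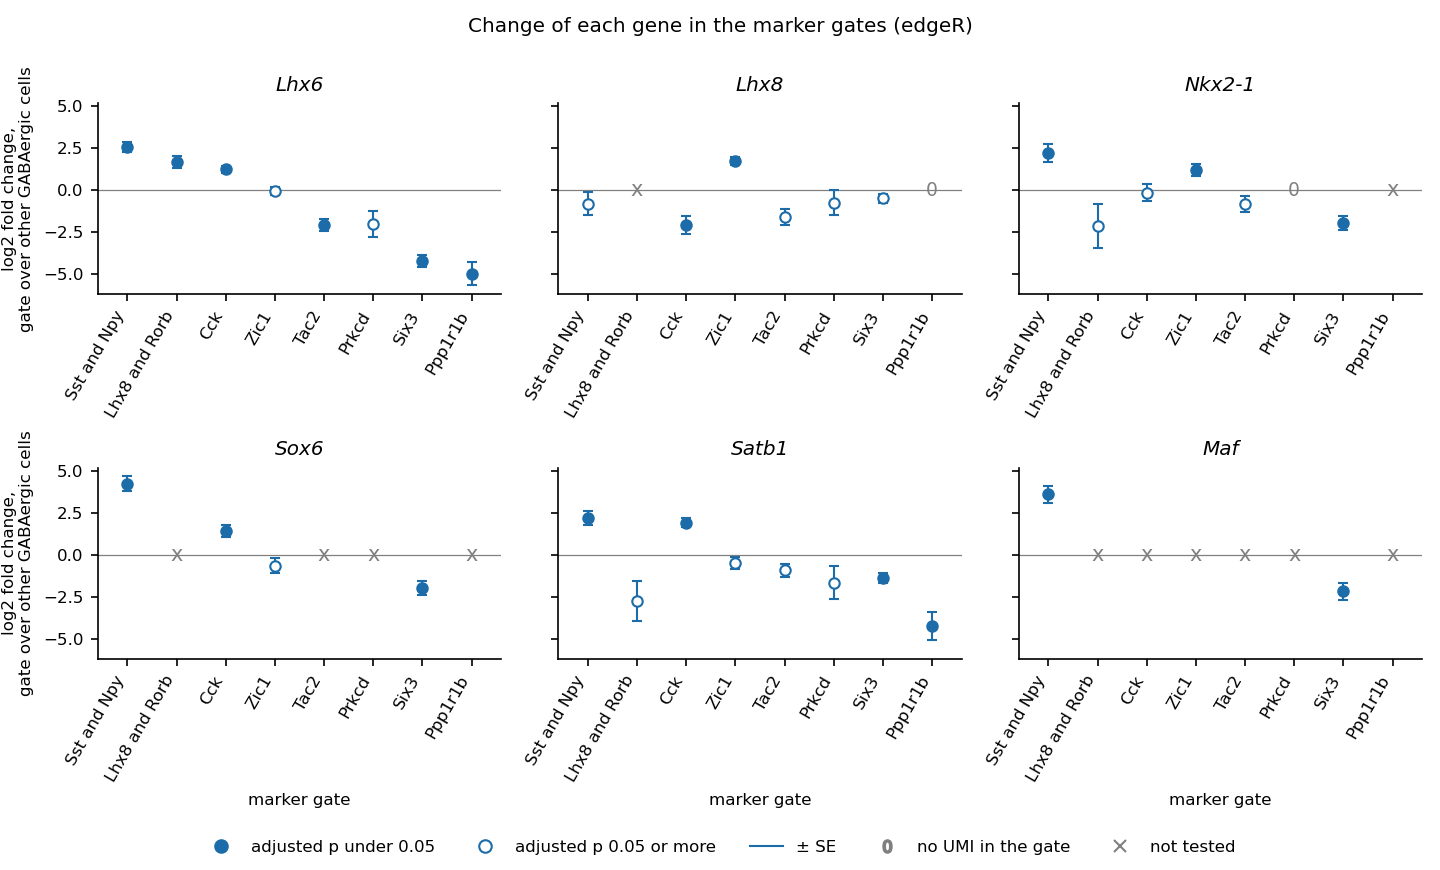
Log2 fold change of each gene (one panel per gene) in cells of each marker gate over the GABAergic cells that did not pass it, from edgeR, with SE bars. Filled points are below an adjusted p of 0.05, 0 marks a tested gene with no UMI in the gate, and x marks a gene too low to test or used by the gate. In the Sst and Npy gate 5 genes are filled and above 0, and in the Six3 gate 5 are filled and below 0.

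The depth of the libraries limits these calls. With each cell thinned to 1000 UMIs and gated on 1 UMI, 6 gates could be fitted and 1 of the 21 calls of members was made, Sox6 in the Sst and Npy gate (log2 difference 4.81, edgeR adjusted p = 9.2e-08). Lhx6 (adjusted p = 0.24) and Nkx2-1 (0.38) in that gate and Lhx6 in the Cck gate (0.35) did not pass, and the other values had too few UMIs left to be tested.

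The Sst and Npy gate and the Lhx8 and Rorb gate, both rich in Lhx6, were then compared directly in libraries 1, 2 and 4. Sox6 separated them. It measured 169, 122 and 155 CPM in Sst and Npy cells and had no UMI in the Lhx8 and Rorb cells, at least 13.5-fold apart by the count of 3 (edgeR adjusted p = 2.4e-08). Lhx6 measured 149, 265 and 320 CPM against 103, 160 and 190 CPM, higher in Sst and Npy cells in 3 of 3 libraries with overlapping ranges (log2 difference 0.75, SE 0.34, edgeR adjusted p = 0.19). When Rorb was not required of the second gate, the Lhx6 difference was 1.16 and passed (adjusted p = 0.0061). One member passed of the 2 tested, where 9.31% of 2040 genes did (5.15% higher and 4.17% lower).

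The levels of Nkx2-1, Satb1 and Maf were separate between the 2 gates in all 3 libraries, but too few UMIs remained for a test. The ratios were 17.2 for Nkx2-1 (counting interval 2.73 to 713), 26.2 for Satb1 (4.34 to 1069) and 23.5 for Maf (3.86 to 962), each resting on 1 UMI in the Lhx8 and Rorb gate. Lhx8, which defines the second gate, stood at 23.2 ± 17.0 against 278 ± 28.4 CPM (SD, n = 3). Without library 1 the counts of Sox6 were too low to test and 87 genes passed instead of 190, since 25 of its 45 UMIs in this comparison came from that library.

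Of the 190 genes that passed, 179 differed the same way in all 3 libraries. Beside Sox6 the largest rises in Sst and Npy cells were Fam46a (at 259 ± 73.8 CPM), Synpr (192 ± 25.2 CPM) and Sox2 (190 ± 59.3 CPM), all with no UMI in the other gate. Crhbp, which binds corticotropin-releasing hormone, measured 484 ± 203 against 2.65 ± 4.58 CPM. Sfrp1, Tcf4, Pcdh18, Chodl and Lmo3 completed the 10 largest. In the opposite direction Isl1 (217 ± 43.7 CPM) and Zfhx3 (208 ± 87.2 CPM) had no UMI in Sst and Npy cells. Crh, the gene of corticotropin-releasing hormone itself, stood at 662 ± 210 CPM in Lhx8 and Rorb cells against 20.3 ± 35.1 CPM (log2 difference -4.41, SE 0.36, edgeR adjusted p = 9.3e-31). Fam19a1, Zfhx4, Nefm, Nrp1, Nefl, Nrip3 and Tle4 were also higher there, of which Nefm and Nefl overlap on opposite strands.

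**Figure D4:**
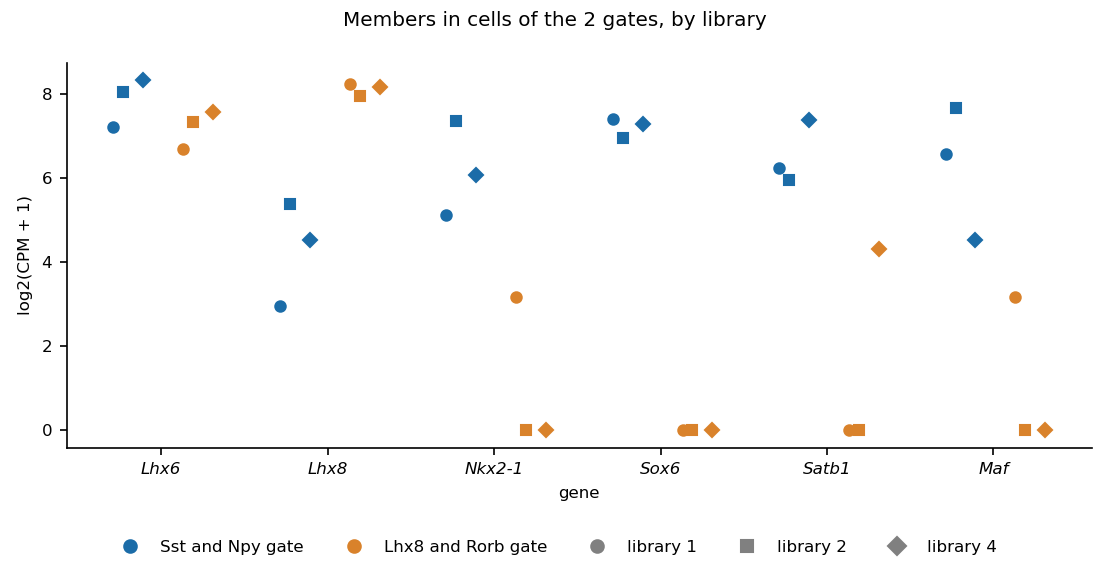
Level of the 6 genes on the log2(CPM + 1) scale in cells of the Sst and Npy gate and of the Lhx8 and Rorb gate, with 1 point per library for libraries 1, 2 and 4. Lhx6 ranges overlap, while the points of Nkx2-1, Sox6, Satb1 and Maf are separate, with Sox6 at 0 in all 3 libraries of the Lhx8 and Rorb gate.

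Next, GABAergic cells were divided by Lhx6 alone. Cells with at least 1 Lhx6 UMI made up 11.7, 11.3, 14.5 and 11.7% of the GABAergic cells in libraries 1 to 4. Each of the 4 other members with enough counts to test was higher in the 263 Lhx6-positive than in the 1913 Lhx6-negative cells, where 2.93% of 8843 genes were higher, 3.09% lower and 6.02% changed either way. Nkx2-1 measured 39.8, 46.1, 42.9 and 72.6 CPM in Lhx6-positive cells against 5.61, 12.4, 12.8 and 17.1 CPM. The groups were separate and the log2 difference was 2.18 (SE 0.28, edgeR adjusted p = 5.1e-08), among the 10 largest rises of all genes. Satb1 measured 31.1, 63.8, 98.1 and 83.5 CPM against 21.8, 17.3, 30.1 and 20.1 CPM and rose by 1.51 (SE 0.24, edgeR adjusted p = 7.7e-06), just separate in range.

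Sox6 rose by 1.59 (SE 0.29, edgeR adjusted p = 0.00013) and Lhx8 by 1.36 (SE 0.23, 3.8e-05), each higher in 4 of 4 libraries with overlapping ranges. The Sox6 call was lost without the library block (adjusted p = 0.057). Maf was too low to test and measured 32.8, 10.6, 55.2 and 25.4 CPM against 7.59, 8.03, 7.30 and 8.85 CPM, separate in range. The depth differed too: the median was 4872 UMIs in Lhx6-positive and 3336 UMIs in Lhx6-negative cells. When Lhx6-negative cells were matched in depth, Nkx2-1 (2.38, edgeR adjusted p = 3.9e-05) and Satb1 (1.50, 0.0058) passed, Lhx8 did not (0.81, adjusted p = 0.21) and Sox6 was too low to test. With cells thinned to 1000 UMIs no member kept enough UMIs to be tested.

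In Lhx6-positive cells 9 of 11 tested genes of the lateral eminence and striatum fell and none rose, with a median of -1.79 beside 0.02 over all genes. Meis2, a transcription factor of that lineage, measured 27.7, 14.2, 0 and 43.6 CPM against 407, 550, 577 and 551 CPM, separate in every library (log2 difference -4.49, SE 0.19, edgeR adjusted p = 4.7e-25). Ppp1r1b fell by 4.96 (SE 0.34, 1.3e-16) and Six3 by 3.58 (SE 0.30, 1.7e-13), while Ebf1 had no UMI in Lhx6-positive cells. Of 12 tested interneuron genes of the medial eminence 6 rose and none fell, with a median of 0.69. They included Sst (log2 difference 2.35, SE 0.16), which was highest in library 4, Npy (1.77, SE 0.22), Nos1 (1.37, SE 0.21) and Erbb4 (1.06, SE 0.12), a receptor of migrating interneurons.

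The caudal list was not lower in Lhx6-positive cells: Cck (1.87, SE 0.18), Prox1 (1.13, SE 0.23) and Nr2f2 (0.71, SE 0.13) rose among 8 tested genes and none fell. On the list of the basal forebrain Tacr1 and Etv1 rose and Isl1 fell by 1.48 (SE 0.23, edgeR adjusted p = 4.5e-06) among 6 tested. Of 9 genes of GABAergic identity 4 rose, among them Dlx1 (0.98, SE 0.14) and Gad1 (0.36, SE 0.07), and Dlx6 fell. Dlx6 and Dlx6os1 overlap on opposite strands, so their opposite directions (-0.71 and 0.81) may involve shared reads.

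Among all genes, 532 passed in this comparison, 483 of them the same way in all 4 libraries. Nxph2 (2.72, SE 0.31), Esr2 (2.62, SE 0.51) and Lypd6 (2.41, SE 0.21) had the largest rises. Esr2 encodes estrogen receptor beta and Lypd6 a modulator of nicotinic receptors. Gldn, Sst, Th, Greb1, Nkx2-1, Crhbp and Crabp1 followed. Avp, the vasopressin gene, with 960 UMIs in Lhx6-negative cells, Zfp503 and Ebf1 had no UMI in Lhx6-positive cells. Slc17a8 (-5.45, SE 0.48), the vesicular glutamate transporter found in some GABAergic neurons, Ppp1r1b, Meis2, Crym, Six3, G630016G05Rik and Six3os1 were the other large falls.

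**Figure D5:**
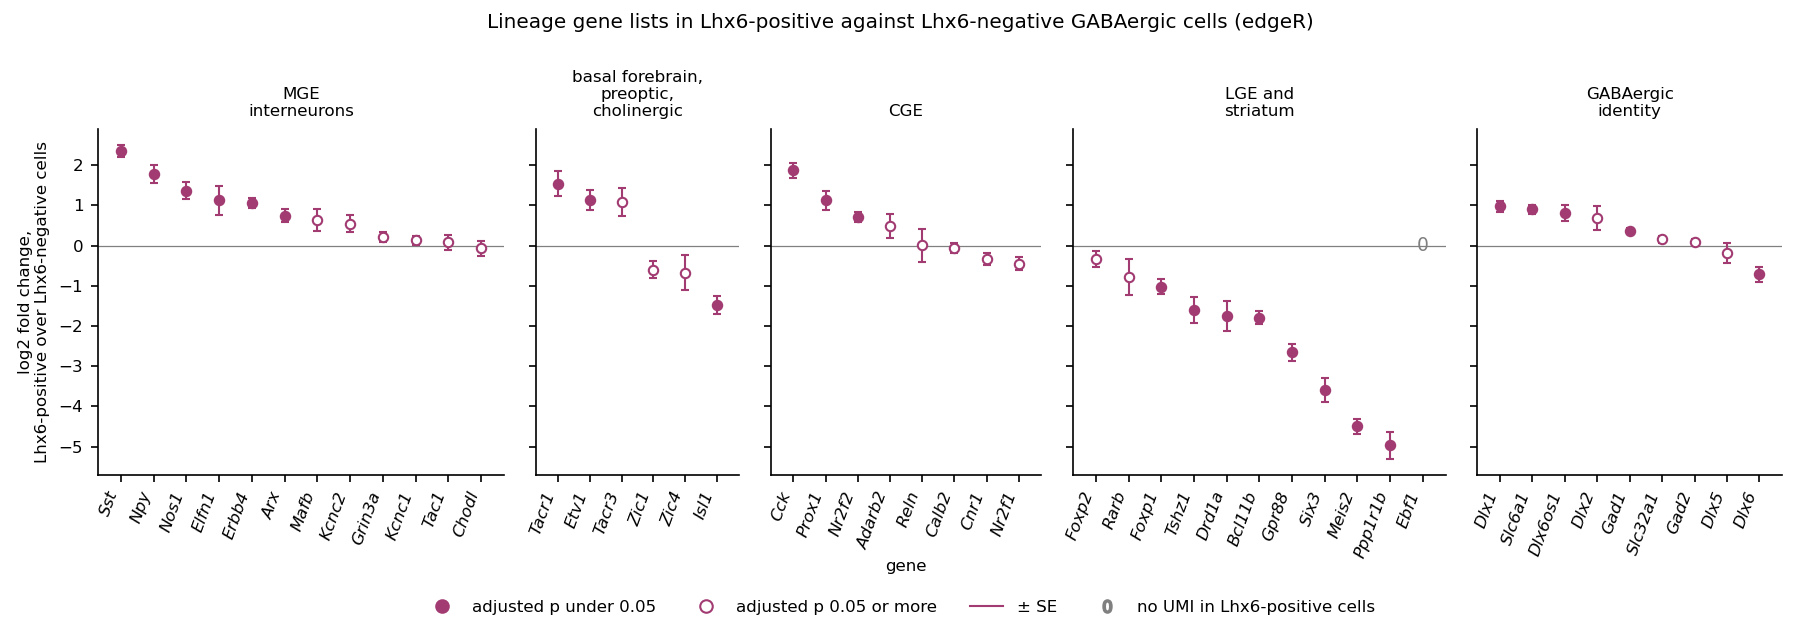
Log2 fold change in Lhx6-positive over Lhx6-negative GABAergic cells, from edgeR with SE bars, for every tested gene of 5 lists (interneurons of the medial ganglionic eminence, MGE; basal forebrain; caudal eminence, CGE; lateral eminence and striatum, LGE; GABAergic identity). Filled points are below an adjusted p of 0.05 and 0 marks Ebf1, with no UMI in Lhx6-positive cells. All filled points of the striatal list lie below 0 and all those of the interneuron and caudal lists above 0.

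Lhx6 and Lhx8 overlapped in part. Of the 141 Lhx8-positive GABAergic cells, 44 also held Lhx6, 97 held Lhx8 alone, and 219 cells held Lhx6 alone. The other members were not tested between these sets, and their levels describe the cells counted here. Sox6 measured 48.9 ± 22.2 CPM in cells with Lhx6 alone (SD, n = 4), 10.6 ± 11.9 CPM in cells with both (n = 3) and 4.55 ± 9.10 CPM in cells with Lhx8 alone (n = 4). In the same sets Satb1 measured 78.3 ± 30.6, 19.9 ± 7.64 and 12.9 ± 13.1 CPM, and Maf 34.6 ± 16.7, 5.55 ± 9.62 and 3.05 ± 3.74 CPM. Of the 141 Lhx8-positive cells only 4 held Sox6, 4 Maf and 12 Satb1. No order is therefore read between cells with both and cells with Lhx8 alone. For each of these 3 genes every library's value with Lhx6 alone lay above every value with Lhx8 alone.

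Nkx2-1 was less divided, at 56.3 ± 16.8 CPM with Lhx6 alone, 27.7 ± 18.1 CPM with both and 45.1 ± 41.3 CPM with Lhx8 alone, with overlapping ranges. In cells with neither LIM gene, Nkx2-1 stood at 10.1 ± 4.06 CPM and Sox6 at 13.9 ± 8.75 CPM. The median depths were 4776, 5491 and 4516 UMIs for Lhx6 alone, both and Lhx8 alone, and 3241 UMIs for neither.

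The gates account for part of the cells with these factors. Of 94 Sox6-positive GABAergic cells 34 (36.2%) passed the Sst and Npy gate, which holds 3.49% of GABAergic cells, and 23 (24.5%) the Cck gate, which holds 6.11%. Of 263 Lhx6-positive cells 38 (14.4%) passed the Sst and Npy gate, 48 (18.3%) the Cck gate and 132 (50.2%) no gate. Of 110 Nkx2-1-positive cells 25 (22.7%) passed the Zic1 gate and 56 (50.9%) none.

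The genes closest in pattern to each member were ranked by Pearson's r of log2(CPM + 1) over 29 sums of gate and library among 8921 genes, given as a description because the sums share cells, libraries and depth. Lhx6 was followed most closely by Lypd6 (0.87), Rab3b (0.83) and Nos1 (0.83), and Lhx8 by Ndst4 (0.83). Sox6 was followed by Moxd1 (0.90), Npy (0.86) and Nxph2 (0.85), Maf by Sfrp1 (0.84), Npy (0.81) and Sox6 (0.79), and Nkx2-1 by Nfib (0.82) and Maf (0.78). Npy and Lhx8 each help to define a gate among these sums. Their high level in that gate is set by the selection, so values that involve them partly repeat the gating. Satb1 was closest to Dlx2 (0.87), Prox1 (0.84) and Dlx1 (0.82). Between members, the values ran from -0.00065 for Lhx8 and Satb1 to 0.79 for Sox6 and Maf.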

How the data were processed

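The authors deposited 1 table of raw UMI counts per gene and barcode for each of the 4 libraries. Per the submitters' processing notes bcl2fastq 2.18.0.12, STAR 2.4.2a and Picard 2.2.4 were used with the mm10 and GRCm38 builds. The counting strand is not given in the sources used here. The 6 genes and the gene lists were chosen with earlier results of these data known. Cells of at least 400 genes and at most 10% mitochondrial UMIs were kept, and 58 doublets of 4239 cells (1.37%) were removed with Scrublet at an expected rate of 0.05 in scanpy 1.11.5. A cell took the marker list with the most UMIs (at least 2 for neurons, 3 for other types), and a neuron was GABAergic from 2 UMIs of Gad1, Gad2 and Slc32a1 summed.

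Counts were summed per library and set of cells (at least 10 cells on each side in at least 3 libraries) and the sums entered the quasi-likelihood test of edgeR 4.0.16 (R 4.3.3, TMM scaling, filterByExpr, library as a block), with Benjamini-Hochberg adjustment over all genes tested. The block pairs sums that come from the same library. Fold changes are log2 values with SE as the fold change divided by the square root of F. CPM values are UMIs per 1000000 UMIs of the summed cells, and their precision is set by the UMI counts given. Intervals and the limit of 3 counts cover counting error only and are at 95%. The code was tested on simulated counts. Named genes were the 6 members, up to 6 called genes of each list by adjusted p, and the 10 largest rises and falls that went the same way in every library. Gene names were matched to GENCODE vM21 (18830 of 20136, 93.5%). Alternatives were RLE scaling, no filter on low counts, DESeq2 1.42.0, no block, 800 genes, a mitochondrial limit of 5%, doublets kept, other gates, cells thinned to 1000 UMIs, depth-matched cells and each library left out. Sums, levels and intervals were computed with pandas 2.3.3, numpy 2.4.6 and scipy 1.17.1 in Python 3.11.15, and plots with matplotlib 3.10.9.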

Additional observations from a re-analysis of the deposited data

Results flagged for a closer look

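In 57 sets of 4 library values, the gap of a library to the nearest other was set against the set's range. In 14 sets it exceeded Dixon's 95% critical share of that range. The number expected by chance, about 2.85, does not allow for sets in which only a single library held UMIs. There the gap equals the whole range whatever the value, so 14 against 2.85 does not measure an excess. Many of the 14 rest on a few UMIs in a single library. In oligodendrocytes these were Lhx6 in library 4 (3.40 CPM), Nkx2-1 in library 3 (2.42 CPM) and Maf in library 3 (4.85 CPM), and in OPCs Nkx2-1 in library 4 (25.8 CPM). In the Ppp1r1b gate they were Lhx6 in library 4 (5.73 CPM), Sox6 and Maf in library 1 (3.68 CPM each) and Satb1 in library 2 (9.43 CPM), each 1 UMI. Maf in the Tac2 gate was 5.60 CPM in library 4, also 1 UMI.

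In the Cck gate, Lhx8 was seen in library 1 alone (15.3 CPM), Nkx2-1 was high in library 4 (68.1 CPM) and Satb1 was low in library 1 (53.4 CPM). In the Zic1 gate library 3 stood high for Lhx8 (115 CPM) and for Satb1 (57.6 CPM).

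The 5961 barcodes left out by the filters also held UMIs of all 6 genes: 39 of Lhx6, 20 of Lhx8, 17 of Nkx2-1, 40 of Sox6, 42 of Satb1 and 119 of Maf. For Maf this was 43.1% of its 276 UMIs, at 67.6 CPM, whereas Lhx6 had 8.32% of its 469 UMIs there. The limit that a count of 3 sets in these barcodes is 1.70 CPM.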

How the results depend on the processing

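Of 36 values of the members past the threshold, 481 values under alternatives were computed: 438 kept direction and call, 43 lost the call and 0 turned in direction. Alternatives that could not be fitted, or in which the gene was too low to test, enter none of these counts. With thinned cells most of the gate calls were of this kind, so the 43 understate the calls not made. Where values changed, the cause was not tested. The values of members that turned sign had uncalled main values, and 4 called values of other genes turned (Cnr1, Npy, Ppp1r1b and Zic1, below). Satb1 in GABAergic against non-neuronal cells (-0.02) turned to 0.15 without a filter on low counts, 0.13 with at least 800 genes, 0.028 with doublets kept and, with a library left out, spanned -0.21 (without library 3) to 0.095 (without library 1); Satb1 in OPCs turned to -0.048 with at least 800 genes. Nkx2-1 turned to 1.01 in Lhx8 cells without the Rorb requirement, and in Cck cells to 0.0094 at a raised gate minimum, and spanned -0.068 (without library 2) to 0.33 (without library 1) with a library left out. In Zic1 cells Lhx6 turned to 0.054 at a mitochondrial limit of 5% and 0.34 with cells of several gates left out, and spanned -0.33 (without library 1) to 0.18 (without library 4) with a library left out. Sox6 there turned to 0.11 with cells of several gates left out. Cnr1 in Cck cells turned to 0.27 with thinned cells, and Npy in Lhx8 cells to 0.010 without the Rorb requirement. With cells of several gates left out of the Six3 gate, Ppp1r1b (-0.75) and Zic1 (-8.71) turned. For Zic1, gated on 1 UMI, the turn is set by the selection. For Ppp1r1b, gated on 2 UMIs, Six3 cells with 1 UMI stayed, and the part of the selection was not tested. The 79 cells shared with the Ppp1r1b gate and the 74 shared with the Zic1 gate were removed from the Six3 side. Cells of those gates without Six3 stayed on the other side.

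Counts of members past the threshold against non-neuronal cells (5) were 3 at the 5% limit and 1 when thinned. Against glutamatergic neurons (2) DESeq2 gave 1 and leaving out a library 0 to 2. In OPCs (3) thinning gave 1. Over the 8 gates (21) the 5% limit gave 13 and thinning 1, each with 6 gates fitted. Between the Sst and Npy and the Lhx8 and Rorb gates (1) they were 4 without the filter, 0 at a gate minimum of 1 UMI, 2 without Rorb and 0 to 1 when a library was left out. For Lhx6-positive cells (4) they were 0 when thinned and 2 when depth-matched.

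Counts of all genes past the threshold fell in most alternatives. Thinning gave 3748 against non-neuronal cells (7263), 1327 in OPCs (3412), 54 in the Sst and Npy gate (299), 20 in Cck (395), 23 in Tac2 (212), 16 in Six3 (548), 248 in Ppp1r1b (1557), 26 in Zic1 (407) and 22 in Lhx6-positive cells (532). DESeq2 gave 73 against glutamatergic neurons (228), 119 in the Sst and Npy gate, 173 in Lhx8 and Rorb (550), 176 in Cck, 90 in Tac2, 216 in Prkcd (668), 120 in Six3, 877 in Ppp1r1b, 142 in Zic1, 44 between the 2 gates (190) and 197 in Lhx6-positive cells. Without the replicate block, that is with the pairing by library dropped, the counts were 138, 172, 354, 142, 61, 418, 46, 857 and 94 from glutamatergic neurons through the 8 gates in that order, and 122 in Lhx6-positive cells. The 5% mitochondrial limit gave 135 against glutamatergic neurons, 115 in Cck, 98 in Tac2, 230 in Zic1 and 336 in Lhx6-positive cells. Raised gate minimums gave 100 in Six3 and 265 in Zic1, and leaving out cells of several gates 185 in Six3, 919 in Ppp1r1b and 155 in Zic1. Lhx8 cells without the Rorb requirement gave 1028, and depth-matched cells 223 for Lhx6.

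Leaving out a library gave 95 to 146 against glutamatergic neurons, 147 to 233 in the Sst and Npy gate, 234 to 359 in Lhx8 and Rorb, 99 to 264 in Tac2, 251 to 477 in Prkcd, 301 to 464 in Six3, 200 to 330 in Zic1, 87 to 202 between the 2 gates and 303 to 387 in Lhx6-positive cells. Thinning could not be fitted for glutamatergic neurons, and thinning, the 5% limit and raised minimums could not be fitted for the Lhx8 and Rorb gate, the Prkcd gate or the comparison of the 2 gates, because too few cells were left. Depth limits the precision: a gate held 0 to 80 UMIs of a member.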
